A study of Mus musculus with 240 samples.

Results

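Matrix proteases and their inhibitors were followed through glioma premalignancy in mouse brain. The set was taken by name: every protein-coding gene of the count table whose symbol begins with Mmp and a digit, Timp and a digit, Adamts and a digit, or Adamtsl and a digit. It held 50 of the 34623 genes of the table, of which 22003 are protein-coding: 22 matrix metalloproteinases (Mmp), 4 tissue inhibitors of metalloproteinases (Timp), 19 secreted proteases with thrombospondin repeats (Adamts) and 5 Adamts-like proteins without a protease domain (Adamtsl). Cells were cut out of brain sections by laser capture, and their RNA was sequenced. The bulk samples represent 37 animals in 6 groups. The wild-type (WT) groups had 5 animals at 12 days, 5 at 90 days and 6 at 150 days after the start of tamoxifen (dpi). The Trp53-/- Nf1-/- groups had 7 animals at 12 dpi and 7 at 90 dpi, sampled as oligodendrocyte precursor cells (OPCs) and called CKO here after their sample names, and 7 animals at 150 dpi, sampled as brain tumour cells. All bulk samples, WT included, carry the label tdTpositive, and the time scale counts from tamoxifen in every group; the Cre driver and its cell type are not given in the sources used here. A further 192 small libraries, all Trp53-/- Nf1-/- at 12 or 90 dpi, were either 10-cell samples (112) or pool-and-split controls (80), in which larger pools were divided into aliquots.

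Matrix metalloproteinases are zinc enzymes made as inactive precursors. Most are secreted, while the membrane-type members stay on the cell surface, and Mmp14 there activates the secreted gelatinase Mmp2 with help from Timp2. The 4 Timp proteins block the active site of these enzymes, and Timp3 also blocks several ADAM and Adamts proteases. In brain the matrix is built on hyaluronan and on the lecticans, proteoglycans that OPCs and astrocytes secrete, and Adamts1, Adamts4, Adamts5 and Adamts9 are known to cut lecticans. Adamtsl proteins bind fibrillin microfibrils.

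Of the 50 genes, 9 lie in 1 cluster on chromosome 9 (chr9:7272514-7699585, GRCm38, 1-based): Mmp13, Mmp12, Mmp1b, Mmp3, Mmp10, Mmp8, Mmp27, Mmp20 and Mmp7. All but Mmp12 had no or few counts in most animals, whereas membrane-type genes outside the cluster were among the most abundant. RefSeq promoter windows (GRCm38.p6) were found for 35 members. The AP-1 motif TGANTCA, searched on both strands from 250 bases before to 50 bases after the start, was present in 7 of the 35 (Mmp1b, Mmp3, Mmp7, Mmp10, Mmp12, Mmp13 and Mmp20), all of them in the cluster, against 7.81% of 32851 windows of all genes. The TATA motif TATAAA was in windows of 11 members (13.6% of all windows) and the GC box GGGCGG in windows of 22 (35.7%). These letter matches are descriptions of the windows; none overlapped another of the 3 motifs in the windows printed here. The 250 bases before the start are given for 3 cluster genes that the tumour data single out or that every group expressed, and for 2 membrane-type genes that were higher in tumours, all on the plus strand, with motif matches in capitals: AP-1 and TATA in Mmp3 and Mmp13, AP-1 in Mmp12 (its later RefSeq start), and GC boxes in Mmp14 and Mmp15.
Mmp3 (chr9:7445572-7445821): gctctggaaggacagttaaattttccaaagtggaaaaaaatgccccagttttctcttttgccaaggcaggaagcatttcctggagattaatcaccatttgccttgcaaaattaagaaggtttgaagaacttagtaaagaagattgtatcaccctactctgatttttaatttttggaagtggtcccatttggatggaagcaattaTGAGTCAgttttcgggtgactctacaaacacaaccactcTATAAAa
Mmp12 (chr9:7347124-7347373): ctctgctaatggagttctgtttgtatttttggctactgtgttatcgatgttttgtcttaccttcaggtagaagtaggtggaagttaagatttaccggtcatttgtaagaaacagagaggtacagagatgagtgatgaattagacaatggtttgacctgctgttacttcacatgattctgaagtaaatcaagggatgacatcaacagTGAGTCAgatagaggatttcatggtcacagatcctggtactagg
Mmp13 (chr9:7272264-7272513): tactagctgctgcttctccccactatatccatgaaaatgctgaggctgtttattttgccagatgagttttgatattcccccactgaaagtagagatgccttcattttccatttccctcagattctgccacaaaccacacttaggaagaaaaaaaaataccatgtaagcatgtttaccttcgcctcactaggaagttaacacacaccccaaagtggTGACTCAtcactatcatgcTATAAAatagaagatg
Mmp14 (chr14:54431348-54431597): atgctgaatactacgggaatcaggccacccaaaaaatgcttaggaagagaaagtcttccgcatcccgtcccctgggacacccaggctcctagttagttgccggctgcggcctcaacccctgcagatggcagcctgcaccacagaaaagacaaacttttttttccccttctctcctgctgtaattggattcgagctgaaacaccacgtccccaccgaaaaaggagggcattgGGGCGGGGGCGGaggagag
Mmp15 (chr8:95352046-95352295): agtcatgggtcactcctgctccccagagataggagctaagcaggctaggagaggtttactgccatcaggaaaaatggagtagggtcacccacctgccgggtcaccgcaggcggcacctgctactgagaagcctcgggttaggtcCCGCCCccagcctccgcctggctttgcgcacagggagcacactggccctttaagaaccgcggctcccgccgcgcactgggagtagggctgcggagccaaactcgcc
Counted from the start, the AP-1 match began at -35 in Mmp13, -44 in Mmp12, -46 in Mmp3 and -95 in Mmp20, the nearest and the farthest of the 7 genes being Mmp13 and Mmp20. In Mmp14 the GC boxes began at -19 and -13, and in Mmp15 the GC box began at -106.

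**Figure D1:**
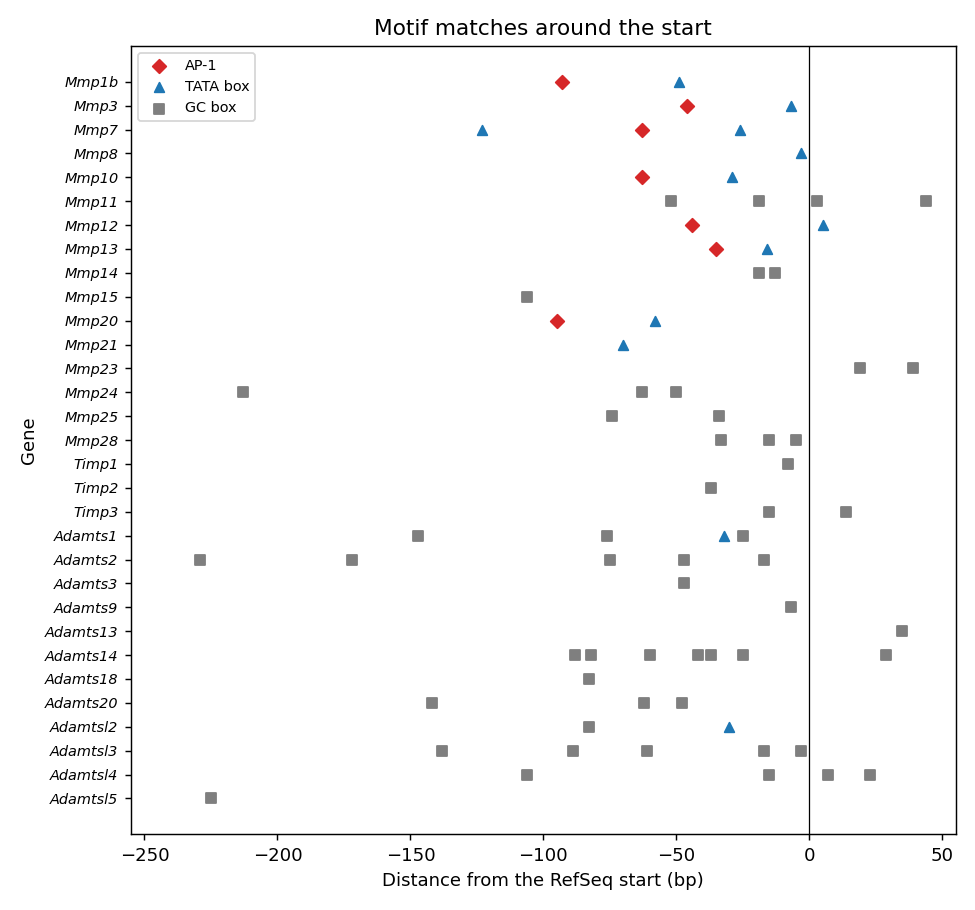
Distance in bases from the RefSeq start (x axis, 0 is the start) of each AP-1, TATA and GC box match, by member (y axis). The AP-1 matches sit between -95 and -35, all in genes of the chromosome 9 cluster, and the 22 members with a GC box are other genes.

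Bulk libraries held 0.09364 to 23.2 M counts (M stands for 1000000; median 9.999 M), and 11 animals, among them all 7 with tumours, had 2 libraries, which were summed. The 10-cell libraries held 1.639 to 6.489 M counts and the pool-and-split libraries 1.907 to 5.161 M. The 2 libraries of animal CKO_20647 (90 dpi) stood apart from each other: their log2 CPM (counts per 1000000) correlated across genes at r = 0.762, against 0.916 to 0.986 in the other 10 animals. Mmp17 read 4.033 CPM in one and 158.4 CPM in the other, and Timp2 235.3 and 1.267 CPM, so results that rest on this animal are also given without it. WT_21167 (90 dpi) had 0.09364 M counts and therefore reads 0 for many members. The targeted gene Nf1 averaged 312 ± 41.2 CPM in WT and 191 ± 16.1 CPM in CKO at 12 dpi (SD, n = 5 and 7) and the 2 groups did not overlap; its log2 change of -0.67 had an adjusted p of 0.0916. In tumours Nf1 was 0.47 lower than in WT on the log2 scale (adjusted p 0.00354), and Trp53, whose deleted part is not given in the sources used here, was 0.74 higher (adjusted p 0.00967).

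Before tumours, no member differed past the threshold between CKO and WT cells in the fit over all bulk animals. Inhibitors and membrane-type enzymes were the most abundant members per kilobase of exon in WT at 150 dpi: Timp2 averaged 57.41 CPM per kb, then Timp3 at 22.37, Adamts5 at 11.31, Mmp16 at 9.667, Mmp24 at 8.806, Mmp15 at 8.314 and Timp4 at 7.08. The enzymes of this list are a lectican-cutting protease (Adamts5) and 3 membrane-type metalloproteinases. Of the 50 members, 39 had enough counts to be tested among 16346 genes, and counts of called members refer to these 39. At 12 dpi 0 of the 39 passed an adjusted p of 0.05 in CKO against WT (edgeR; 0.0184% of all genes did), 1 had an unadjusted p under 0.05 (4.85% of all genes), and DESeq2 called 0. At 90 dpi 0 passed (0.0489% of all genes), 2 had an unadjusted p under 0.05 (5.20% of all genes), and DESeq2 called 0. How far the genotype difference shifted between 12 and 90 dpi was called for 0 members (0% of all genes). It had an unadjusted p under 0.05 for 1 member (3.60% of all genes), and DESeq2 called 0. When the tumour against WT test was checked with planted changes, it recovered 25% of those of log2 1 and 90% of those of log2 2. Counts of 0 therefore do not show that members were unchanged.

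Mmp15, a transmembrane metalloproteinase, was the gene with the unadjusted signal at 12 dpi. It read 25.24, 25.78, 34.53, 39.81 and 40.43 CPM in the 5 WT animals, and 42.19 (lowest), 65.36 (median) and 77.05 CPM (highest) in the 7 CKO animals. Every CKO animal was above every WT animal, a separation shared by 1.33% of all genes. The log2 change was 0.94 (SE 0.31, p = 0.00403 in the edgeR test, adjusted p 0.824). Mmp15 was called when only the groups compared were fitted. At 90 dpi its groups overlapped, at 26.3, 31.87, 32.78, 37.91 and 40.77 CPM in WT and 38.58, 42.99 and 61.78 CPM (lowest, median, highest) in CKO.

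Time without tumours moved no member past the threshold in the fit over all bulk animals either. A fit of only the WT groups at 12 and 90 dpi called Adamts19. Between 12 and 90 dpi 0 members were called in CKO (0% of all genes; 3 unadjusted, 4.23% of all genes) and 0 in WT (0.00612% of all genes; 1 unadjusted, 4.85%), and between 90 and 150 dpi 0 were called in WT (0.0184% of all genes; 2 unadjusted, 8.25%); DESeq2 called 0 in each. Adamts4, a lectican-cutting protease also known from oligodendrocytes, was the WT gene with the unadjusted signal from 12 to 90 dpi. Its WT levels were 19.05, 28.14, 36.15, 38.74 and 60.52 CPM at 12 dpi and 9.477, 15.31, 15.53, 23.25 and 25.86 CPM at 90 dpi. The value of 9.477 CPM came from WT_21167, the library of 0.09364 M counts, and rests on almost no reads. The ranges overlapped (log2 change -0.92, SE 0.39, adjusted p 0.996).

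**Figure D2:**
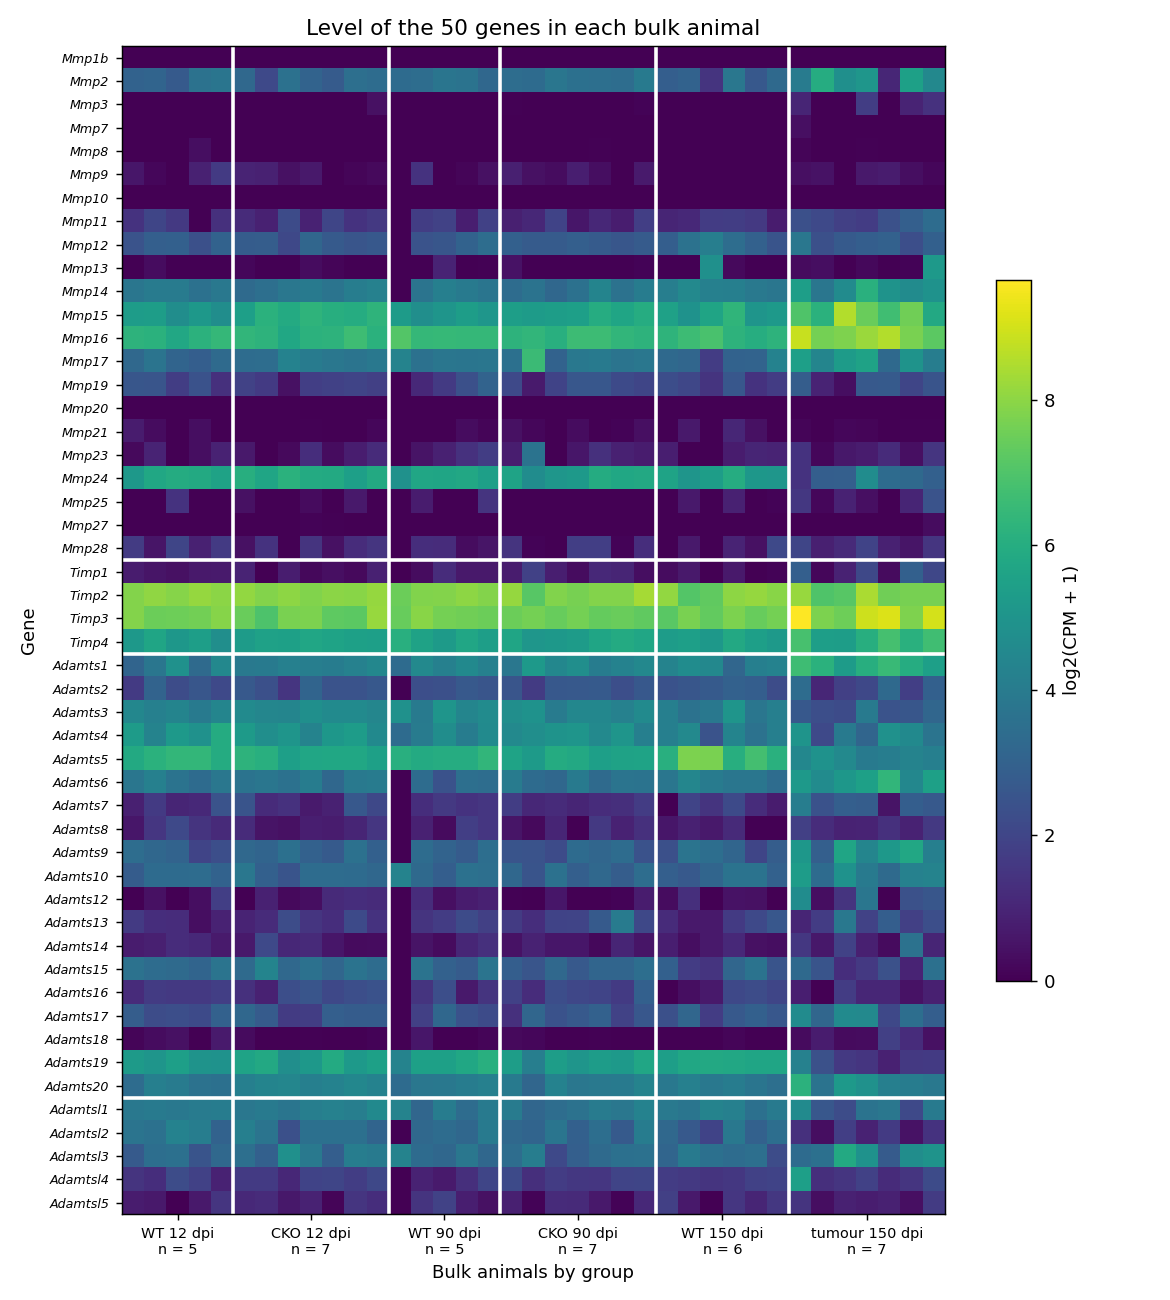
Level of each of the 50 members (rows) in each of the 37 bulk animals (columns, grouped by genotype and time) as log2(CPM + 1). Timp2, Timp3, Mmp16 and Mmp15 are bright in every group, the rows of Adamts19, Mmp24, Adamts5 and Adamtsl2 darken in the 7 tumours, and 3 rows (Mmp1b, Mmp10, Mmp20) are at 0 throughout.

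In tumours 25 of the 39 tested members differed from WT at 150 dpi, 20 higher and 5 lower. All genes gave 46.2% called, 24.3% higher and 21.9% lower. The median log2 change of the members was 1.02, beside 0.06 over all genes. Against CKO cells at 90 dpi, a comparison that shares the tumours and also spans time, 25 members differed, 19 higher and 6 lower (all genes 49.0%, 26.4% and 22.6%), with a median of 0.81 beside 0.12. In each comparison 7 members had groups that did not overlap (15.7% and 17.2% of all genes). By family, against WT, 6 of 12 tested Mmp genes were higher and 1 lower, 3 of 4 Timp genes were higher, 9 of 18 Adamts genes were higher and 3 lower, and 2 of 5 Adamtsl genes were higher and 1 lower. In both comparisons 18 members were higher and 5 lower, and 12 were called in neither. Both comparisons use the same tumours. The shares of all genes called in both or in neither were not computed, so these counts are only a description.

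Other cell types' genes moved in the same tumours. Summed neuron markers were at 281.5 to 1523 CPM in tumours and 7908 to 11390 CPM in WT at 150 dpi (9 of 10 lower), OPC markers at 1722 to 4418 and 944.1 to 1625 CPM (8 of 10 higher), microglia and macrophage markers at 272.0 to 994.9 and 111.7 to 161.4 CPM (9 of 10 higher), and fibroblast markers at 23.29 to 1724 and 31.08 to 96.3 CPM (8 of 10 higher). Proliferation genes were higher for 10 of 10 and mural markers lower for 6 of 10 and higher for 1 (Acta2, log2 2.68). Oligodendrocyte markers were lower than in WT for 6 of 10 and higher for 1, astrocyte markers higher for 4 and lower for 3, and endothelial markers lower for 2. Against CKO at 90 dpi 1 mural marker was lower and 2 were higher. In that comparison oligodendrocyte markers were lower for 7 and higher for 0, and endothelial markers higher for 2 and lower for 0. Astrocyte markers were again higher for 4 and lower for 3. No gene of these lists was at 0 in all tumours or in all WT animals at 150 dpi. The part of these cell types in the protease results was not tested, and in bulk samples fewer cells of a type and less RNA per cell cannot be told apart.

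The transmembrane metalloproteinases split in tumours: Mmp14, Mmp15 and Mmp16 were higher and Mmp24 was lower. Mmp16 read 63.14, 75.92 and 115.6 CPM (lowest, median, highest) in WT at 150 dpi, 67.84, 80.16 and 97.27 CPM in CKO at 90 dpi, and 147.6, 218.2 and 463.1 CPM in tumours. Every tumour lay above every animal of both other groups. The difference was 3.21-fold from WT (log2 1.68, SE 0.20, adjusted p 8.52e-09) and 3.34-fold from CKO (log2 1.74, SE 0.19, adjusted p 1e-09). Mmp15 had 29.31, 40.17 and 78.53 CPM in WT, 38.58, 42.99 and 61.78 CPM in CKO, and 55.48, 127.1 and 369.5 CPM in tumours. Its highest value came from Tumor_16840, and the lowest tumours overlapped both groups. The change was 3.38-fold from WT (SE 0.30 on the log2 scale, adjusted p 7.66e-06) and 3.22-fold from CKO (SE 0.27, adjusted p 3.37e-06).

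Mmp14, the activator of Mmp2, stood at 12.66, 16.52 and 22.05 CPM in WT, 8.449, 11.36 and 19.22 CPM in CKO, and 12.8, 28.95 and 68.56 CPM in tumours. One tumour (Tumor_16839) was as low as WT and the rest were above all WT animals. The change was 2.01-fold from WT (log2 1.00, SE 0.27, adjusted p 0.00203) and 2.62-fold from CKO (log2 1.39, SE 0.25, adjusted p 2.11e-05). Mmp24, a membrane-type enzyme known from neurons, went the other way, from 31.92, 36.82 and 61.99 CPM in WT and 24.82, 47.41 and 60.51 CPM in CKO to 1.647, 6.716 and 24.78 CPM in tumours. No tumour reached the lowest WT or CKO animal, although Tumor_16844, the highest, lay next to the lowest CKO animal. It fell 4.43-fold from WT (log2 -2.15, SE 0.31, adjusted p 3.69e-07) and 4.98-fold from CKO (SE 0.30, adjusted p 6.28e-08). Over 13.6% of its exon length Mmp24 is overlapped by BC029722 on the opposite strand, and whether counting used strand is not given in the sources used here.

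Mmp17 and Mmp25 are held on the membrane by a lipid anchor. Mmp17 read 2.267, 7.737 and 18.25 CPM in WT and 8.819, 30.22 and 46.08 CPM in tumours, a 3.20-fold difference with overlap (SE 0.45 on the log2 scale, adjusted p 0.0026). Against CKO its log2 change was 0.30 (SE 0.41, adjusted p 0.575), with CKO_20647 at 94.1 CPM and the other CKO animals at or below 14.56 CPM. Without that animal the log2 change was 1.31 (adjusted p 0.000353). Mmp25 had 0 counts in all 7 CKO animals at 90 dpi and 0 to 4.515 CPM in tumours (median 0.8775). Set against 3 counts over the CKO group, the tumour mean was 45.8-fold higher, a figure that takes no account of the spread between animals. The edgeR test against this group at 0 counts gave an adjusted p of 0.00044. Elsewhere Mmp25 averaged 0.3348 CPM in WT at 12 dpi, 0.4853 CPM in WT at 90 dpi and 0.1649 CPM in CKO at 12 dpi. Against WT, whose animals ranged from 0 to 0.8505 CPM, it was not called (adjusted p 0.142).

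Among secreted metalloproteinases, Mmp2 and Mmp11 were higher in tumours. Mmp2, a gelatinase, read 1.7, 6.812 and 13.14 CPM in WT, 9.416, 10.59 and 14.63 CPM in CKO, and 1.075, 27.17 and 61.83 CPM in tumours. Tumor_21256 was the lowest of all these animals and the other 6 tumours, from 15.16 CPM up, exceeded every WT and CKO animal. The change was 3.85-fold from WT (log2 1.94, SE 0.42, adjusted p 0.000199) and 2.73-fold from CKO (SE 0.38, adjusted p 0.00177). Mmp11, a stromelysin that leaves the cell already active, was at 0.6809 to 2.362 CPM in WT, 0.4913 to 2.816 CPM in CKO and 2.299 to 9.595 CPM in tumours, with a slight overlap. It was 3.02-fold and 3.54-fold higher (adjusted p 0.0128 and 0.00227). Mmp12, the macrophage elastase, showed no such difference: 4.698 to 16.44 CPM in WT and 3.924 to 13.29 CPM in tumours (log2 -0.38, SE 0.29, adjusted p 0.295), while microglia and macrophage markers were higher in the same tumours. Mmp12 shares 96.1% of its sequence with Gm48848 over 68.5% of the shorter transcript, so reads may be split between them. Mmp19, Mmp23 and Mmp28 were called in neither comparison, with log2 changes of 0.33, 0.47 and 0.78 against WT.

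**Figure D3:**
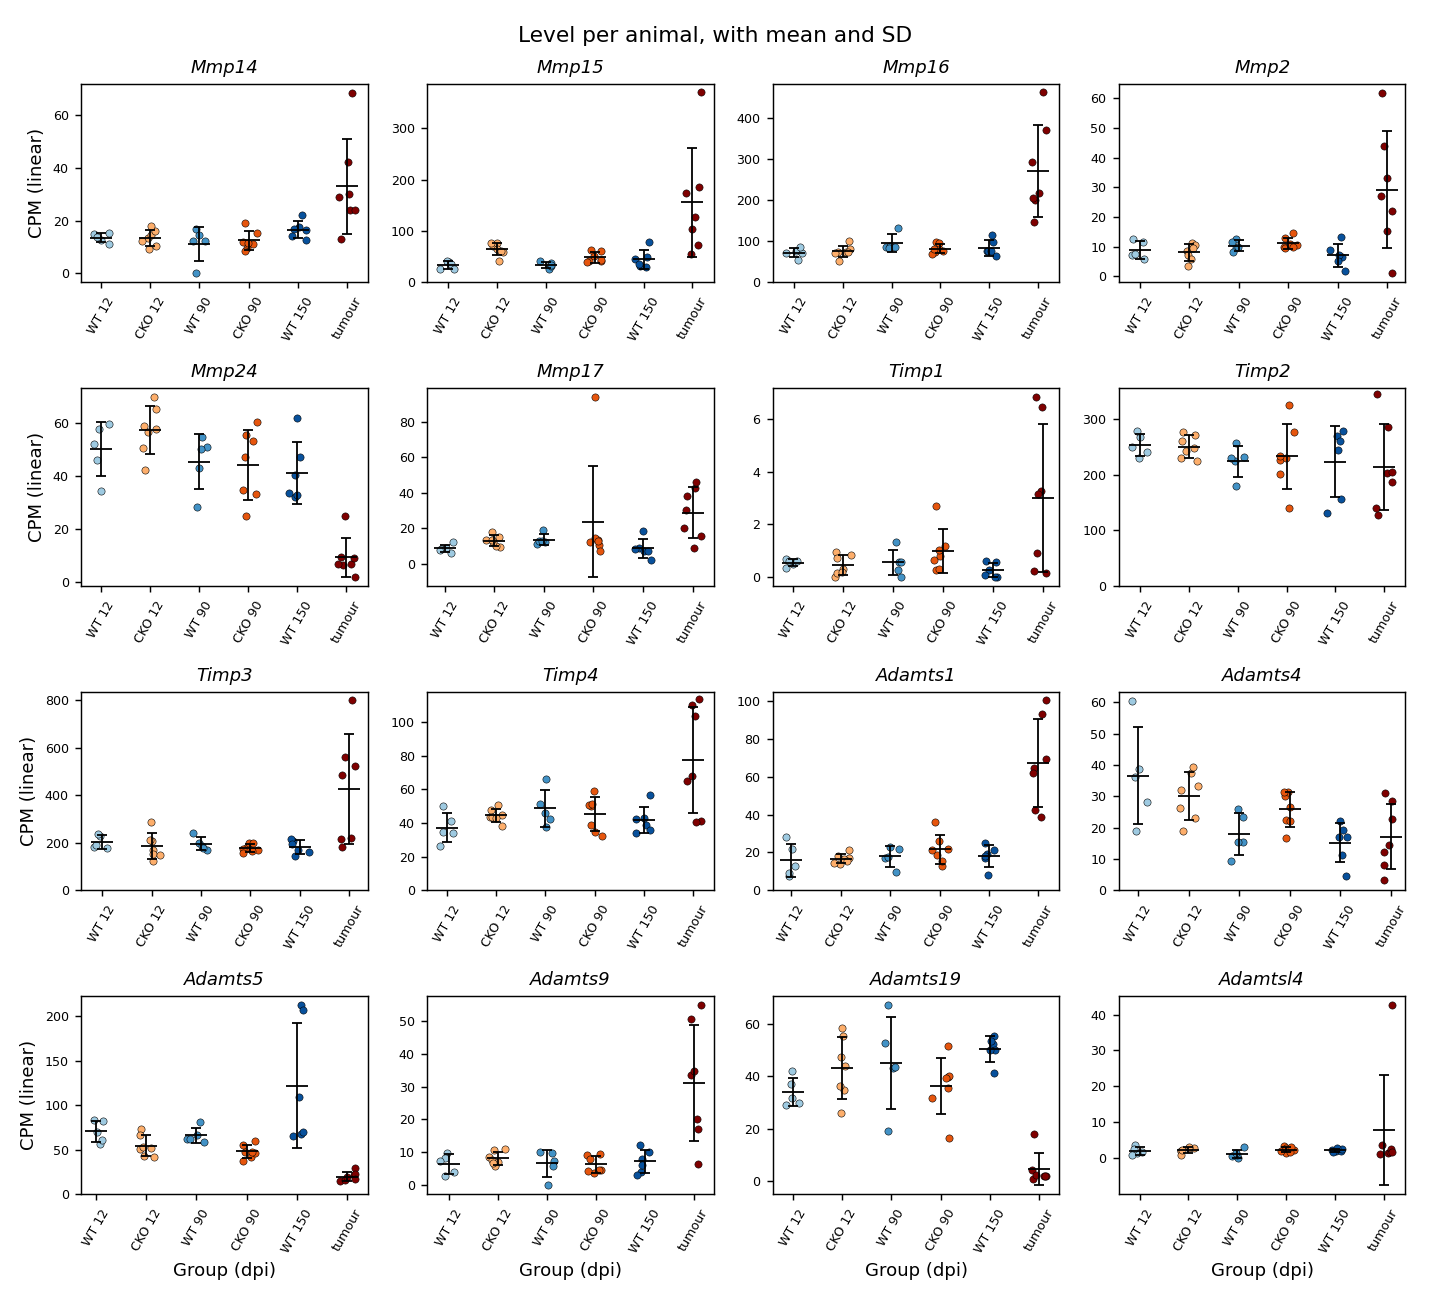
CPM per bulk animal (points) with mean and SD (bars) for 16 members across the 6 groups (x axis). Mmp16 and Adamts1 are higher in all 7 tumours than in any WT animal at 150 dpi, and Mmp24, Adamts5 and Adamts19 are lower. Timp2 stays within 127.7 to 345.2 CPM in tumours.

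Of the inhibitors, Timp3, Timp4 and Timp1 were higher in tumours than in WT, and Timp2 was not called. Timp3, which is bound to the matrix, had 144.7, 183.3 and 215.3 CPM in WT, 156.8, 172.6 and 199.8 CPM in CKO, and 181.8, 486.8 and 802.7 CPM in tumours. The tumours formed 2 levels, 3 between 181.8 and 218.4 CPM and 4 between 486.8 and 802.7 CPM, and the lower 3 overlapped or lay next to the other groups. The difference was 2.34-fold from WT (log2 1.22, SE 0.24, adjusted p 6.74e-05) and 2.42-fold from CKO (SE 0.23, adjusted p 1.77e-05). Timp4 went from 34.01, 40.71 and 56.32 CPM in WT and 32.41, 49.9 and 59.16 CPM in CKO to 40.3, 68.11 and 113.6 CPM in tumours, with overlap. Its changes were 1.86-fold (log2 0.90, SE 0.21, adjusted p 0.000454) and 1.68-fold (SE 0.19, adjusted p 0.00157).

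Timp1, the inhibitor that is induced in reactive glia, was rare: 0 to 0.5803 CPM in WT, 0.2456 to 2.69 CPM in CKO and 0.1347, 3.132 and 6.857 CPM in tumours. Tumor_16839 and Tumor_21256 stayed at WT levels. Against WT it was 9.98-fold higher (log2 3.32, SE 0.85, adjusted p 0.00145; 3.97 without WT_21593), and against CKO the log2 change was 1.52 (SE 0.66, adjusted p 0.0538). Without CKO_20647, the highest CKO animal at 2.69 CPM, the latter was 2.07 (adjusted p 0.0103). Timp2, the most abundant member per kilobase in WT, was at 132.0, 252.4 and 278.0 CPM in WT and 127.7, 203.5 and 345.2 CPM in tumours. The groups overlapped throughout (log2 -0.07, SE 0.19, adjusted p 0.799), and the sign of this small value turned under another scaling (0.09). Per kilobase, Timp2 and Timp3 averaged 54.83 and 52.46 CPM per kb in tumours. Timp1, Timp3 and Timp4 lie inside the synapsin genes Syn1, Syn3 and Syn2 on the opposite strand; the exon overlap is 0%, 21.3% and 1.5% of the Timp exons. All 3 synapsin genes were lower in tumours than in WT (log2 -3.38, -0.51 and -2.37 for Syn1, Syn3 and Syn2), and 2 of the 3 were called lower against CKO. The part of opposite-strand reads in the Timp counts was not tested.

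The lectican-cutting Adamts proteases also split. Adamts5 read 65.68, 89.35 and 213.0 CPM in WT at 150 dpi, 37.42, 47.26 and 60.16 CPM in CKO at 90 dpi, and 14.37, 19.02 and 29.37 CPM in tumours. No tumour overlapped either group. It fell 6.05-fold from WT (log2 -2.60, SE 0.24, adjusted p 2.37e-11) and 2.43-fold from CKO (log2 -1.28, SE 0.22, adjusted p 1.04e-05). Adamts1 did the reverse, at 8.032, 18.71 and 24.95 CPM in WT, 13.01, 21.25 and 35.89 CPM in CKO, and 38.61, 64.93 and 100.5 CPM in tumours. Again no tumour overlapped, and the rise was 3.74-fold from WT (SE 0.28, adjusted p 8.13e-07) and 3.10-fold from CKO (SE 0.26, adjusted p 2.67e-06). The pair are neighbours on chromosome 16 (85793827 to 85901125), 55.06 kb apart with no protein-coding gene between them.

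Adamts9, a further lectican-cutting enzyme, rose from 3.007, 7.101 and 12.19 CPM in WT and 3.584, 4.736 and 9.591 CPM in CKO to 6.6, 33.5 and 54.86 CPM in tumours. Only Tumor_16839 was within the range of the other groups. The change was 4.18-fold and 4.89-fold (SE 0.39 and 0.36 on the log2 scale, adjusted p 4.25e-05 and 1.73e-06). The gene A730049H05Rik, on the opposite strand of the same locus, overlaps 9.2% of the Adamts9 exons. Adamts20, close in sequence to Adamts9, was 1.92-fold higher in both comparisons (adjusted p 0.00698 and 0.00315), although the call against WT was lost when only the groups compared were fitted (adjusted p 0.11). Adamts4 was not called, at 4.534, 17.01 and 22.05 CPM in WT, 16.75, 26.6 and 31.44 CPM in CKO and 3.368, 14.36 and 30.97 CPM in tumours, which overlapped. Its log2 changes were 0.07 from WT (adjusted p 0.898) and -0.60 from CKO (SE 0.31, adjusted p 0.112); without Tumor_16713 or Tumor_21256 the latter was -0.77 (adjusted p 0.0458) or -0.82 (adjusted p 0.0299). Adamts15 and Adamts8, neighbours on chromosome 9, were called in neither comparison.

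Adamts2, Adamts3 and Adamts14 trim the amino end of procollagens, and they did not move together. Adamts3 fell from 11.32, 15.21 and 31.37 CPM in WT and 15.1, 21.38 and 29.59 CPM in CKO to 3.568, 5.055 and 14.33 CPM in tumours. One tumour, Tumor_16844, overlapped WT and none overlapped CKO. The falls were 2.64-fold (SE 0.25 on the log2 scale, adjusted p 1.56e-05) and 3.54-fold (SE 0.24, adjusted p 8.87e-08). Adamts2 was called in neither comparison (log2 -0.11 and 0.06). Adamts14 was 5.32-fold and 5.31-fold higher (adjusted p 0.0113 and 0.00379), but Tumor_21349 alone held 11.38 CPM while the other tumours held 0.2151 to 2.72 CPM. Without it the log2 changes were 1.37 (adjusted p 0.0861) and 1.30 (adjusted p 0.0618).

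Among the other Adamts genes Adamts6, Adamts10, Adamts17, Adamts7 and Adamts12 were higher, Adamts19 was lower and Adamts13 was called in neither comparison. Adamts6, which acts with fibrillin microfibrils, was at 9.532, 12.97 and 20.6 CPM in WT, 8.449, 11.91 and 15.21 CPM in CKO, and 21.17, 35.36 and 81.52 CPM in tumours. No tumour overlapped either group, and the rise was 2.93-fold (SE 0.25, adjusted p 3.02e-06) and 3.31-fold (SE 0.24, adjusted p 1.4e-07). Adamts10, its close relative, was 2.21-fold and 2.51-fold higher and Adamts17 2.48-fold and 2.91-fold higher. Adamts7 and Adamts12 share substrates such as cartilage oligomeric matrix protein. Adamts7 was 3.24-fold and 3.98-fold higher (adjusted p 0.0176 and 0.00199), and against WT the call was lost without WT_22064 (adjusted p 0.0508) or with only the groups compared (0.0752).

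Adamts12 was near 0 outside tumours, at 0 to 1.451 CPM in WT and 0 to 0.6739 CPM in CKO, and read 0, 0.2694, 1.755, 4.312, 4.967, 13.00 and 24.93 CPM in the 7 tumours. Its lowest tumours overlapped both groups. Its log2 change was 3.93 from WT (SE 1.14, adjusted p 0.00452) and 5.31 from CKO (SE 1.05, adjusted p 6.86e-05); it was 4.92 from WT without WT_21591, and from CKO 6.58 without CKO_22212 and 4.65 without Tumor_16713. Adamts19 fell furthest of all members tested against WT: 41.53, 51.35 and 55.54 CPM in WT, 16.57, 39.47 and 51.57 CPM in CKO, and 0.8603, 2.047 and 18.12 CPM in tumours. The highest tumour was Tumor_16713, the other 6 lay at or below 4.311 CPM, and all were below WT. The fall was 12.1-fold from WT (log2 -3.59, SE 0.42, adjusted p 5.61e-09) and 8.42-fold from CKO (log2 -3.07, SE 0.40, adjusted p 4.36e-08); without Tumor_16713 the log2 changes were -4.48 and -4.08. Adamts16 was lower against CKO alone of the 2 comparisons (log2 -1.67, SE 0.54, adjusted p 0.0102; -1.03 and 0.143 against WT).

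The Adamts-like proteins moved apart from one another. Adamtsl2, which binds fibrillin and latent TGF-beta binding protein, had 2.834, 7.839 and 13.42 CPM in WT, 5.678, 8.675 and 15.44 CPM in CKO, and 0.2694, 1.538 and 2.457 CPM in tumours, with no overlap. It fell 6.19-fold and 7.12-fold (SE 0.40 and 0.39 on the log2 scale, adjusted p 1.1e-06 and 1.58e-07). Adamtsl3 was 2.60-fold and 2.48-fold higher (adjusted p 0.00668 and 0.00427), at 5.807, 25.84 and 56.8 CPM in tumours. Adamtsl4 was called higher in both comparisons (log2 1.66 and 1.57, adjusted p 0.0322 and 0.023), but this rested on Tumor_16713. That animal had 42.72 CPM, and both its libraries were high (39.72 and 57.51 CPM), while the other 6 tumours had 1.291 to 3.64 CPM. Without it the log2 changes were -0.07 (adjusted p 0.901) and -0.26 (adjusted p 0.582). Adamtsl1 and Adamtsl5 were called in neither comparison.

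**Figure D4:**
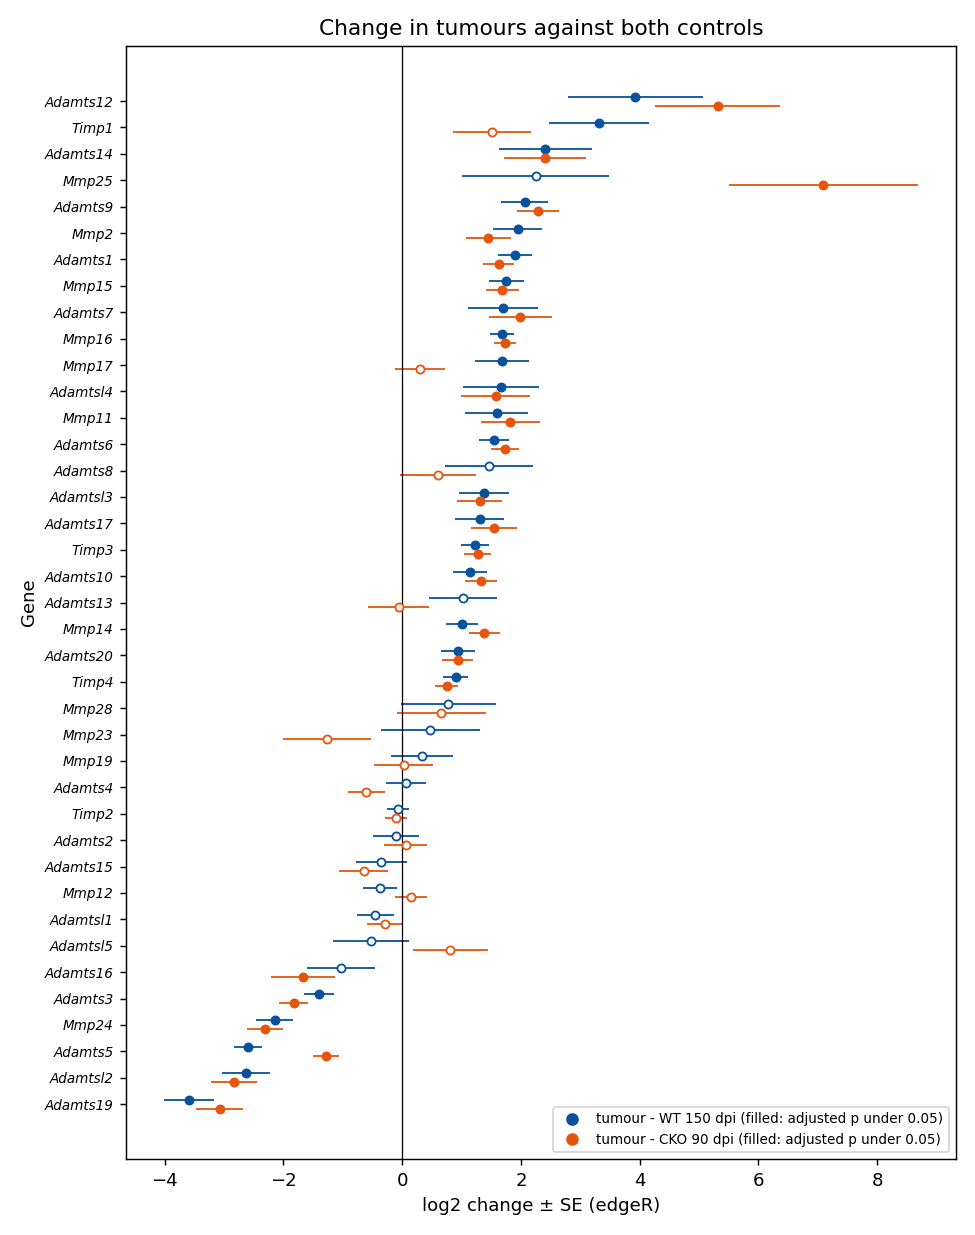
Log2 change with SE (bars) of the 39 tested members in tumours against WT at 150 dpi and against CKO at 90 dpi; filled points have an adjusted p under 0.05. Adamts19, Adamtsl2, Adamts5 and Mmp24 sit furthest left against WT, and the Mmp25 value of 7.09 against CKO is a fitted number against a group at 0 counts, not a measured fold.

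The 11 members not tested were close to 0 in bulk. Mmp1b, Mmp10 and Mmp20 had 0 counts in all 240 libraries. Mmp7, Mmp8, Mmp27 and Mmp21 had 3, 4, 12 and 65 counts over the 37 animals, and Adamts18 had 109, of which 83 were in tumours. Adamts18 read 0.2047 to 2.581 CPM in the 7 tumours, 0 to 0.0945 CPM in WT at 150 dpi and 0 to 0.1994 CPM in CKO at 90 dpi, with no test. It reached 0.6083 CPM in WT at 12 dpi. Mmp3, a stromelysin, had 167 counts in 7 animals: the 7 tumours read 0, 0, 0, 0.9544, 0.9884, 1.609 and 2.334 CPM, every WT animal at every time read 0, and CKO animals read at most 0.3599 CPM. Set against 3 counts over the WT group at 150 dpi, the tumour mean was 10.5-fold higher. This figure takes no account of the spread between animals, and there was no test. Mmp3 has near-identical copies (Gm15242 and Gm15244, 95.4% and 96.1% identity).

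Mmp13, a collagenase, was carried by single animals. Tumor_21354 had 1270 of its 1366 counts (35.84 CPM; 59.68 and 11.33 CPM in its 2 libraries), and WT_21592 at 150 dpi had 49 counts (27.77 CPM). All other animals were at or below 0.9236 CPM. Mmp9, the gelatinase best known from neutrophils and activated endothelium, had 166 counts in 25 animals and never exceeded 2.129 CPM. It was 0 in all 6 WT animals at 150 dpi and 0 to 0.6453 CPM in tumours. Neutrophil markers summed to 4.311 to 12.7 CPM in tumours and 7.544 to 17.2 CPM in WT at 150 dpi. Ly6g and Ltf were at 0 in every tumour, and Ly6g, Camp, Ngp and Elane in every WT animal at 150 dpi.

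Single tumours lay far apart for several members. Of the 36 tested members with a count in every tumour, the highest tumour exceeded the lowest most for Mmp2, 57.5-fold, where the lowest tumour held 5 counts. For Adamts14, Timp1 and Adamts7 the lowest tumour held only 1, 1 and 2 counts, so no fold is given. Tumor_16713 was the highest tumour for 17 of these 36, among them Timp3, Timp4, Mmp16, Adamts1 and Adamts20. The share of all genes with that tumour highest was not computed, so this count is only a description. The same tumour had fibroblast markers at 1724 CPM, while the other 6 summed to 23.29 to 395.6 CPM. It was also the highest tumour for mural (384.2 CPM) and oligodendrocyte markers (1640 CPM) and the lowest for neuron markers (281.5 CPM). The part of these cell types in its protease levels was not tested. Tumor_16839 was lowest for 10 members and Tumor_21256 for 9, and Tumor_21256 combined the lowest Mmp2 with the highest Adamts6 (81.52 CPM). Shares over all genes were not computed for these counts either. Tumor_16713, Tumor_16839 and Tumor_21256 also had the fewest counts in total (7814829, 8763052 and 4906024), against 24009807 or more in each other tumour. The part of depth in these extremes was not tested.

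The genotype difference changed between 90 and 150 dpi for 19 members, 14 upwards and 5 downwards (30.0%, 14.2% and 15.8% of all genes). Without CKO_20647 it was 23. The 5 that turned lower were Adamts19, Adamtsl2, Adamts5, Mmp24 and Adamts3, which were also the 5 lower in both tumour comparisons, with shared animals. For Adamts5 the WT animals read 59.25, 61.65, 62.52, 66.34 and 80.79 CPM at 90 dpi and 65.68 to 213.0 CPM at 150 dpi, with overlap and no call (log2 0.86, SE 0.26, adjusted p 0.517).

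Genes known to act with these proteases were counted in the same tumours, where 46.2% of all genes were called against WT and 49.0% against CKO; a count near those shares is no result about a list. In the plasminogen system, which activates several metalloproteinase precursors, 5 of 7 tested genes were higher than in WT and 1 lower, among them Plaur (log2 3.36), Plau (2.50) and Plat (1.58), with the neuronal inhibitor Serpini1 lower (-3.87). Plau, the urokinase gene, read 0.2043 to 2.321 CPM in WT, 0.2456 to 1.039 CPM in CKO and 3.013 to 12.19 CPM in tumours, with no overlap. Of 10 tested activators and regulators 5 were higher and 0 lower against WT, led by the docking receptor Cd44 (log2 5.47), Lcn2 (5.20), the broad protease inhibitor A2m (2.93) and the convertase Pcsk6 (1.25). Membrane-bound ADAM genes had 5 of 12 higher, led by Adam12 (2.94) and Adam19 (1.95), and 2 lower (Adam33 and Adam22, -2.91 and -0.83).

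Matrix substrates and partners of the Adamts and Adamtsl proteins were counted in the same way. Of 8 lecticans and link proteins 5 were higher than in WT, led by Acan (log2 4.04), Vcan (2.14), Ncan (2.03) and Bcan (2.83-fold), and Hapln2 was lower (4.00-fold, adjusted p 0.000591). Their summed level was 757.4 to 1212 CPM in WT at 150 dpi, 938.8 to 1272 CPM in CKO at 90 dpi and 1853 to 8282 CPM in tumours, with no overlap. Of 9 tested fibrillins, latent TGF-beta binding proteins and partners 3 were higher (Thbs1 4.31, Fbn1 2.94, Thbs2 1.93) and Ltbp1 was lower (-0.77). Against CKO at 90 dpi the counts of higher and lower genes were 5 and 1, 6 and 1, 6 and 2, 4 and 2, and 4 and 0 in the same order of lists. In CKO against WT at 12 or 90 dpi 0 genes of these lists were called.

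In the small libraries the inhibitors and a few proteases were the members seen most often. Timp2 had a count in 181 of 192 libraries (94.27%), Adamts13, the protease of von Willebrand factor, in 176, Timp3 in 171, Mmp15 in 168 and Mmp12 in 158. Adamts13 was frequent and low, with a median of 10 counts where detected in the 10-cell samples and at most 19.57 CPM in any library. Mmp16, among the most abundant proteases in bulk, had a count in 21.43% of 10-cell samples at 12 dpi and 53.57% at 90 dpi. The libraries differ in chemistry from bulk, polyA RNA by PCR against total RNA by linear amplification, so levels were not compared across them. Mmp1b, Mmp3, Mmp7, Mmp8, Mmp10, Mmp13, Mmp20 and Mmp27 had 0 counts in all 192. If libraries were independent, this would allow a share of up to 5.36% of 56 libraries or 7.5% of 40. Libraries come from 4 sets per time and kind and may share an animal, so the true limit may be higher.

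Members with a count in at least 50% of libraries numbered 10 in 10-cell samples at 12 dpi, 13 at 90 dpi, and 10 and 12 in pool-and-split controls. The 10 at 12 dpi were Timp2, Timp3, Timp4, Mmp12, Mmp14, Mmp15, Mmp17, Mmp24, Adamts13 and Adamtsl4 in both kinds. Adamts2 joined at 90 dpi in both kinds, Adamts10 and Mmp16 in the 10-cell samples and Adamts4 in the controls. Mmp14 was detected in 57.14% of 10-cell samples at 12 dpi and 98.21% at 90 dpi, and in 70.0% and 82.5% of controls. The median number of genes detected per 10-cell library was 7496 at 12 dpi and 10070 at 90 dpi, beside 8652 and 8686 in the controls; the part of this in the detection of members was not tested.

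**Figure D5:**
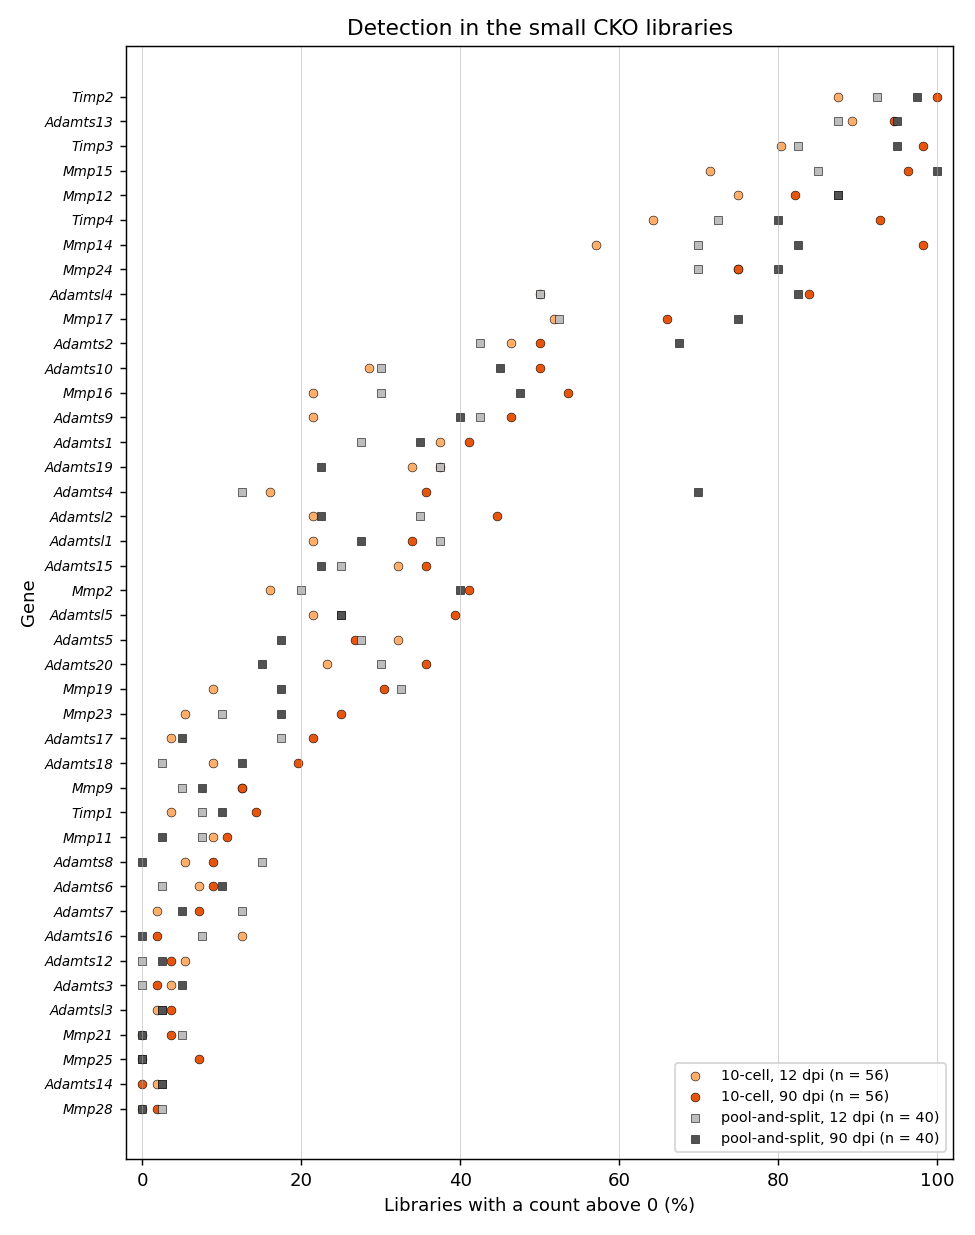
Share of small libraries with a count (x axis, percent; circles are 10-cell samples, squares pool-and-split controls, darker at 90 dpi) for the 42 members seen in at least 1 of them. Timp2 is at 87.5% to 100% in all 4 groups, and Mmp14, Adamtsl4 (50.0% and 83.93%) and Mmp16 differ most between 10-cell samples at 12 and 90 dpi.

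Levels were compared over sets, the 4 groups of libraries per time that share sex and label number. Between 90 and 12 dpi 0 of 31 tested members were called in 10-cell sets (edgeR; 0% of all genes; 3 unadjusted, 7.14% of all genes) and 0 of 26 in pool-and-split sets (0% of all genes; 4 unadjusted, 7.84%). The smallest adjusted p was 0.495 and 0.596. DESeq2 called 2 and 4 (1.93% and 4.04% of all genes). The edgeR test with 4 sets a time recovered no planted change when it was checked, so the counts of 0 say nothing about stability. The 3 unadjusted members in 10-cell sets were Adamts16, Mmp16 and Timp4. Timp4 ranged from 7.472 to 100.6 CPM at 12 dpi and 82.73 to 138.6 CPM at 90 dpi. Mmp16 ranged from 0.1216 to 1.548 and 2.045 to 22.99 CPM, and Adamts16 from 0.2701 to 2.96 and 0 to 0.01585 CPM. The 4 sets of each time were apart for Mmp16 (higher at 90 dpi) and Adamts16 (lower), and overlapped for Timp4. The share of all genes with sets apart was not computed, so this separation is only a description. In the controls Mmp16 sets overlapped, at 0 to 46.16 and 1.617 to 12.11 CPM.

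Whether cells differed from one another more than aliquots of a pool was asked of members detected in at least 50% of libraries. At 12 dpi 0 of 10 members had a larger spread of log2(CPM + 1) in 10-cell samples (limma; 0.0254% of 7874 genes; 1 unadjusted) and at 90 dpi 0 of 13 (0.259% of 9658 genes; 1 unadjusted). The unadjusted ones were Timp2 at 12 dpi (scaled difference 0.79, SE 0.39, adjusted p 0.509) and Mmp15 at 90 dpi (0.54, SE 0.24, adjusted p 0.286). The SD of Mmp15 was 2.23 in 10-cell samples and 1.70 in controls at 90 dpi, and that of Timp2 was 3.12 and 2.69 at 12 dpi. At the other time the differences were -0.29 for Timp2 and 0.22 for Mmp15.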

How the data were processed

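The members and the gene lists were chosen with earlier results of these data known. Per the submitters' processing notes, reads were processed with RSEM, Bowtie2 and the mouse build GRCm38, versions not given. The authors deposited expected counts (RSEM's estimated reads per gene), of which 13.6% were not whole; they were rounded here. The 92 spike-in rows were left out. Group, time and sex came from the labels; the 2 libraries of an animal were summed. Differences were tested with edgeR 4.0.16 (R 4.3.3; quasi-likelihood test, TMM scaling, genes passing filterByExpr with a minimum count of 10 and total of 15) in 1 fit over the 37 animals with sex as a covariate, and Benjamini-Hochberg adjusted over all genes tested; called means an adjusted p under 0.05. CPM are per TMM-scaled total, except that values of single libraries are per library total. The common coefficient of variation was 0.418. P-values measure the spread between these animals or between 4 sets of small libraries per time; nothing says that sets are separate animals. Those of the test of spread are over single libraries, which may share an animal. Set labels recur at both times, but sets with the same label did not deviate together (correlations -0.039 to 0.019), so they were not paired. Spread between small libraries was tested with limma 3.58.1 (Levene-type test on log2(CPM + 1), pseudocount 1, members detected in 50% of libraries). Named were all members called in a tumour comparison or earlier, the best-known enzymes and inhibitors, members detected in at least 50% of small libraries of a kind, and up to 4 called genes a direction of each related list, 1 of which is not reported here. Alternatives were DESeq2 1.42.0, RLE scaling, other filters, fits of only the groups compared, fits without sex, an animal's deeper library in place of the sum, and leaving out each animal or set. Gene positions are those of GRCm38; exon lengths and overlaps come from GENCODE M21, in which 34331 genes were found.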

Additional observations from a re-analysis of the deposited data

Results flagged for a closer look

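In 27 of 234 member and group combinations (11.5%) the highest or lowest animal stood apart from the rest by Dixon's criterion. Chance meets it in about 1 of 20 groups if values are normally distributed. The CPM used include many low and 0 values, so 11.5% cannot be set against that rate. Tumor_16713 was that animal 5 times, WT_21167 (the library of 0.09364 M counts) 4 times and CKO_20647 3 times. Tumor_16713 was highest among tumours for Adamtsl4 (42.72 CPM, others 1.291 to 3.64), Adamts20 (71.83, others 11.85 to 36.03), Adamts19 (18.12, others 0.8603 to 4.311), Adamts7 (15.92, others 0.4302 to 6.669) and Mmp12 (13.29, others 3.924 to 6.883). Fibroblast, mural and oligodendrocyte markers were also highest and neuron markers lowest in that tumour, and their part was not tested. The other tumours that stood apart were Tumor_16840 for Mmp15 (369.5 CPM, others 55.48 to 185.9) and Adamts13 (13.75, others 0.9884 to 6.453), Tumor_16844 for Mmp24 (24.78, others 1.647 to 9.249) and Adamts3 (14.33, others 3.568 to 8.184), Tumor_21256 for Adamts6 (81.52, others 21.17 to 43.8) and Tumor_21349 for Adamts14 (11.38, others 0.2151 to 2.72).

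In CKO animals at 90 dpi, CKO_20647 stood apart for Mmp17 (94.1 CPM, others 7.168 to 14.56), Mmp23 (11.74, others 0 to 1.52) and Timp1 (2.69, others 0.2456 to 1.177), and CKO_22154 for Adamts13 (15.27, others 1.406 to 5.59). At 12 dpi CKO_21725 was highest for Adamts14 (3.345, others 0.2127 to 1.197) and Adamts15 (19.65, others 8.213 to 11.7), and CKO_22017 was lowest for Mmp19 (0.3606, others 2.09 to 2.935). Among WT animals at 90 dpi WT_21167 read 0.0 CPM for Adamts2 (others 3.994 to 5.501) and 0.0 for Mmp14 (others 12.07 to 16.93), and was highest for Mmp16 (132.7, others 84.11 to 88.28) and Mmp17 (18.95, others 11.15 to 12.85). Other WT animals that stood apart were WT_22281 for Adamts12 (2.433, others 0 to 0.3506) and WT_22180 for Mmp25 (1.674, others 0) at 12 dpi. At 150 dpi they were WT_21591 for Adamts12 (1.451, others 0 to 0.378), WT_21593 for Adamts3 (31.37, others 11.32 to 16.82) and WT_22064 for Mmp28 (3.404, others 0 to 0.945).

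The difference between Trp53-/- Nf1-/- and WT animals was itself larger or smaller at 150 dpi (tumours) than at 90 dpi for 19 members by the edgeR test of that change. On the log2 scale it moved upwards for Mmp25 (8.184, adjusted p 0.00277, a fitted value against a group at 0 counts and no measured fold), Adamts12 (6.143, adjusted p 0.00232), Adamts14 (2.888, 0.0348), Adamts9 (2.416, 0.000746), Mmp11 (2.239, 0.0213), Mmp2 (1.883, 0.0128), Mmp16 (1.837, 3.49e-06), Adamts1 (1.752, 0.000813), Adamts10 (1.495, 0.00469), Timp3 (1.377, 0.00211), Mmp15 (1.23, 0.023), Mmp14 (1.094, 0.0279), Adamts6 (1.059, 0.0222) and Timp4 (0.907, 0.0193). It moved downwards for Adamts19 (-3.132, adjusted p 5.62e-05), Adamtsl2 (-2.573, 0.000593), Adamts5 (-2.143, 7.14e-06), Mmp24 (-2.042, 0.00052) and Adamts3 (-1.353, 0.00471).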

How the results depend on the processing

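Of 2518 recomputed values of 58 results, 2477 kept their direction and their side of the threshold, 10 were no longer called, 14 became called and 17 reversed. Adamtsl4 without Tumor_16713 reversed to -0.07 (tumour against WT) and -0.26 (against CKO); leaving out single animals gave -0.07 to 1.91 and -0.26 to 1.79. The other reversals were of values near 0 that were never called: Timp2 was 0.09 against WT and 0.07 against CKO with DESeq2 or RLE scaling, 0.04 and 0.03 with the filter of 10 CPM, and -0.22 to 0.06 and -0.26 to 0.01 without single animals, and Adamts4 was -0.16 to 0.27 against WT without single animals. Fitting the compared groups alone gave 1 member in CKO against WT at 12 dpi (Mmp15) and 1 in WT at 90 against 12 dpi (Adamts19) in place of 0; the cause was not tested. A filter of 10 CPM left 20 members to test for tumour against CKO and called 16. DESeq2 called 2 members in 10-cell sets (Mmp16, Adamts16) and 4 in pool-and-split sets (Adamts4, Mmp17, Mmp2, Adamts19) in place of 0; the cause was not tested. With the set label as a replicate block, 0 members were called in either kind. Leaving out 1 animal gave 24 to 26 called members for tumour against WT, 23 to 27 for tumour against CKO, 17 to 23 for the shift of the genotype difference between 90 and 150 dpi, and 0 for the other comparisons; leaving out 1 set also gave 0. RLE scaling moved the median log2 change of all genes from 0.06 to 0.22 (WT) and from 0.12 to 0.29 (CKO). Against CKO, Timp1 was called under 10 alternatives (adjusted p 0.0103 to 0.0496). Against WT, Adamts7 was not called without WT_22064 (0.0508) or with the compared groups alone (0.0752), nor was Adamts20 in the latter (0.11). Depth limits what the low members show: most values of Mmp3, Mmp7, Mmp8, Mmp9 and Mmp27 rest on a few counts.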
